A study of Mus musculus with 9 samples.

Results

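A set of 10 genes of iron handling, heme breakdown and ferroptosis defence was followed in injured mouse spinal cord. They were chosen by name, and all 10 were found among the 52550 genes of the count table and passed the filter on low counts. The genes are Hmox1, Fth1, Ftl1, Tfrc, Slc40a1, Slc11a1, Slc11a2, Cp, Trf and Gpx4. RNA was sequenced from the spinal cord of 9 adult female C57BL/6N mice, 3 in each group, on day 7 after surgery. Sham mice had a laminectomy only and no contusion. SCI mice had a thoracic contusion and daily intraperitoneal injections of the vehicle dimethyl sulfoxide. SCI+FIPI mice had the same contusion and daily intraperitoneal FIPI, an inhibitor of phospholipase D. Sham and SCI therefore differ in the contusion and the vehicle injections together, SCI and SCI+FIPI differ in the drug, and no uninjured group given FIPI was compared here. Each library came from a segment around the injury epicenter and held every cell type in it.

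Iron is needed by every cell but drives lipid peroxidation when it is free. Cells take it up bound to transferrin, carry it across membranes by divalent metal transporters, store it in ferritin shells and release it through ferroportin. Bleeding into injured cord brings heme, which heme oxygenase opens to free iron, and ferroptosis is the death of cells whose membrane lipids are peroxidized in an iron-dependent way. Iron regulatory proteins bind a short hairpin, the iron-responsive element, in several of these RNAs when iron is scarce. Binding before the coding sequence blocks translation, whereas binding after it protects the RNA from degradation.

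The hairpins are shown because they set apart members whose RNA is known to be regulated by iron in opposite ways. Mouse transcripts of GENCODE M21 (GRCm38) were searched for a C, 5 further bases, a loop and 5 bases after it. The loop was CAGTG followed by A, C or T. The 5 bases after it had to pair with the 5 before it, G-U pairs included. Each hairpin is printed from 5′ to 3′ of the transcript in DNA letters, with the loop in capitals. Fth1, Ftl1 and Slc40a1 had 1 match each in the 5′ untranslated region, and Tfrc had 4 in the 3′ untranslated region.
Fth1, chr19:9982732-9982761, plus strand: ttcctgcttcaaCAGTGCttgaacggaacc
Ftl1, chr7:45459778-45459807, minus strand: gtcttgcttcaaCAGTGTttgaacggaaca
Slc40a1, chr1:45925464-45925493, minus strand: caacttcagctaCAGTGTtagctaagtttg
Tfrc, chr16:32631219-32631248, plus strand: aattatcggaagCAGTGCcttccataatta
Tfrc, chr16:32631598-32631627, plus strand: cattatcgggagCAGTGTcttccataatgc
Tfrc, chr16:32631663-32631692, plus strand: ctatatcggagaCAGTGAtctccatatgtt
Tfrc, chr16:32631710-32631739, plus strand: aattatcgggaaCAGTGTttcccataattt
Of 21747 protein-coding genes, 23 (0.106%) held such a match in a 5′ untranslated region and 99 (0.455%) in a 3′ untranslated region. The other 6 members held none, which says only that this pattern is not in their annotated untranslated regions. A hairpin with an unpaired base among the 5 beside the loop would be missed, so iron regulation of these members is not judged. The ferritin heavy and light chain hairpins, Fth1 and Ftl1, ended their loops in C and T and carried the same bases on either side of them, ttcaa and ttgaa. RefSeq promoter windows of 300 bases (GRCm38.p6) covered 6 members, Fth1, Ftl1, Tfrc, Slc11a1, Cp and Gpx4. None of these held TGACNNNGC, the core of the antioxidant response element, on either strand. That motif was found in 12.39% of the 32851 windows. Hmox1 and the other members without a window were not searched, nor were bases outside the windows, so regulation through this motif is not judged.

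Total counts were 20806000 to 24016169 in Sham, 23981165 to 24582377 in SCI and 22364964 to 23703938 in SCI+FIPI mice. Markers of oligodendrocytes (summed CPM, read counts over the library total scaled by its TMM factor, 32710 to 34280 in Sham) and neurons (6051 to 6712) were present in every Sham mouse, as spinal cord should hold. In SCI against Sham, 9 of 10 microglia and macrophage markers rose and their sum went from 328–454 to 5223–6086 CPM. All 8 neuron markers fell (sum 1698 to 2449 CPM in SCI), 5 of 8 oligodendrocyte markers fell (22870 to 25540), and 3 of 6 astrocyte markers (6055–6514 to 11160–12730) and 3 of 5 endothelial markers (238–264 to 408–438) rose. None of the 6 neutrophil markers (17.8–50.4 and 23.9–34.9) and none of the 7 red cell markers (286–390 and 97.8–234) passed the test. Of 4 choroid plexus markers, 2 could be tested and 1 fell (sums 5.22–6.44 and 3.10–4.57). By the same test 24.4% of all genes rose and 22.5% fell in SCI against Sham. A bulk measurement cannot tell fewer cells of a type from less RNA per cell.

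Of the 10 genes, 6 were called as different between SCI and Sham mice, which differ in contusion and vehicle injections together. Hmox1, Ftl1, Slc11a1, Cp and Slc40a1 rose and Tfrc fell in SCI against Sham, while Fth1, Slc11a2, Trf and Gpx4 did not pass the test. To be called, a gene had to differ by 0.5 or more on the log2 scale, up or down, with an adjusted p under 0.05 (edgeR quasi-likelihood test, Benjamini-Hochberg adjustment over 18699 genes). In the same comparison 47% of all genes tested were called, so a count of 6 of 10 (60.0%) is near the background of this comparison. By direction, 24.4% of all genes were called higher and 22.5% lower. The median log2 fold change was 0.59 over the 10 genes and −0.0031 over all genes. For 7 members no SCI mouse overlapped a Sham mouse, against 70.5% of all genes. An exact two-sided permutation test of 3 mice against 3 cannot go below p = 0.1, and every member whose groups did not overlap reached that value.

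**Figure D1:**
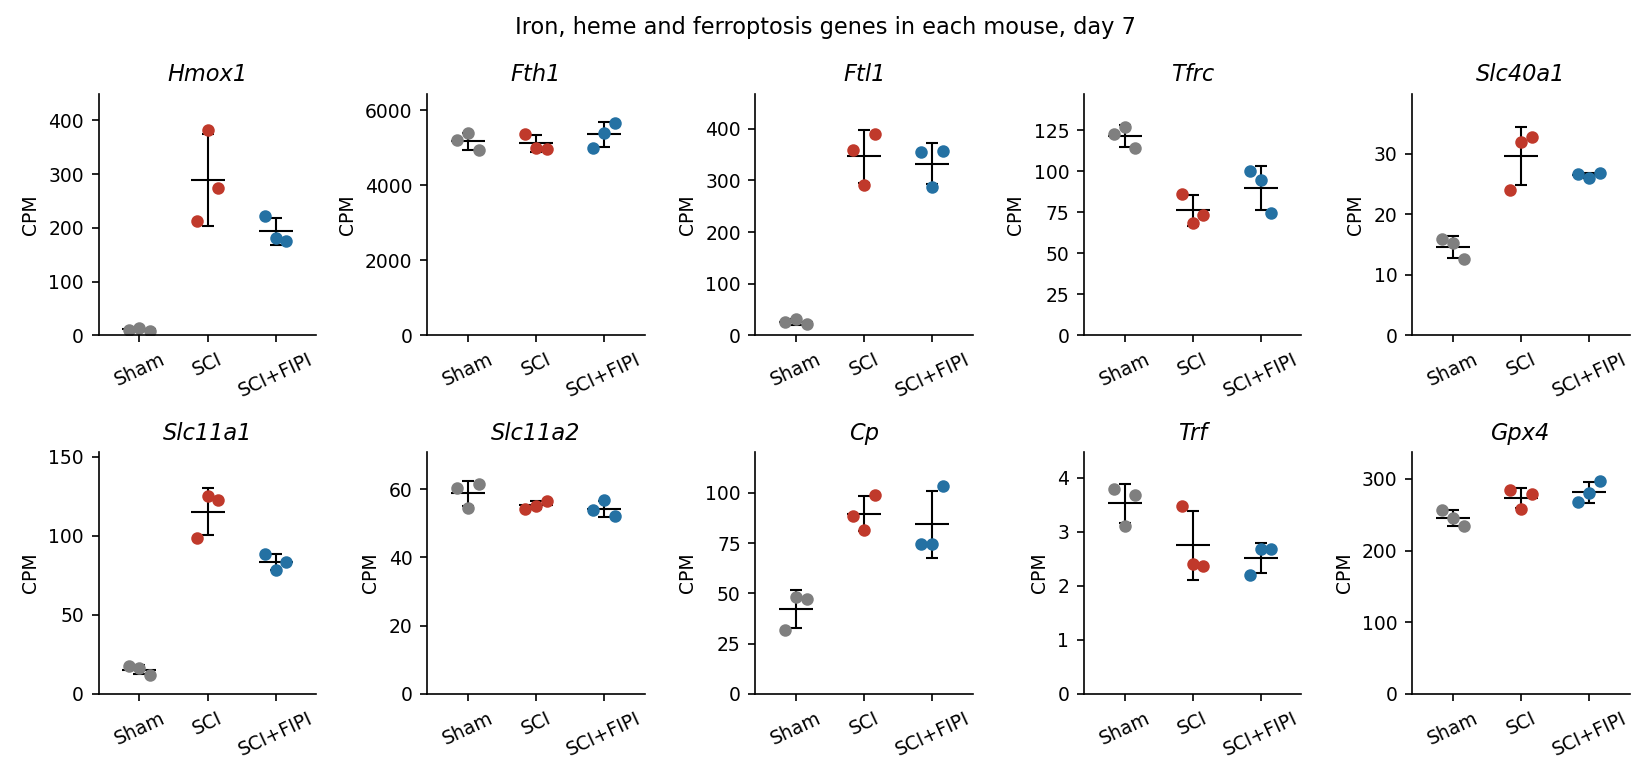
CPM of each gene (vertical axis, starting at 0) in each of the 9 mice, 3 points per group, with the group mean and SD as black bars. Hmox1, Ftl1 and Slc11a1 lay near the bottom of their panels in Sham and far above it in both contused groups, whereas Fth1 and Slc11a2 stayed level across the 3 groups.

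Hmox1 (ENSMUSG00000005413, chr8:75093621-75100589, plus strand) encodes the inducible heme oxygenase, which cuts heme into iron, carbon monoxide and biliverdin. Its level was 10.9, 13.4 and 9.07 CPM in Sham mice 1 to 3. It was 213, 381 and 274 CPM in the SCI mice, and 222, 182 and 176 CPM in the SCI+FIPI mice. Every contused mouse stood far above every Sham mouse, and the SCI mice spread widest, with SCI mouse 2 the highest of the 9. In SCI against Sham Hmox1 rose 26.0-fold (log2 4.70, SE 0.28, adjusted p = 4.2e-06 in edgeR), the largest change among the 10 genes. Per exonic length, its mean went from 6.42 ± 1.35 FPKM (SD, n = 3; FPKM is the count per kilobase of exon over the unscaled library total) to 163 ± 47.5. With the fold of 17.3 in SCI+FIPI against Sham (log2 4.12, adjusted p = 1.19e-05) it also led in that comparison. Its mean was lower in SCI+FIPI than in SCI, 193 ± 25.4 against 289 ± 85.1 CPM (log2 −0.58, SE 0.23, 95% interval −1.128 to −0.038). That difference had an unadjusted p of 0.0395 in edgeR and did not pass adjustment (adjusted p = 0.173), and the groups overlapped, since SCI+FIPI mouse 1 stood above SCI mouse 1. Under the alternatives tried its value ran from −0.76 to −0.33, and it was called in none of the 19.

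Fth1 (ENSMUSG00000024661, chr19:9980598-9985098, plus strand) encodes the ferritin heavy chain, which oxidizes iron for storage, and was by far the most abundant of the 10 RNAs. It gave 5201, 5387 and 4937 CPM in Sham, 5359, 5001 and 4973 CPM in SCI, and 5003, 5390 and 5666 CPM in SCI+FIPI mice. The groups overlapped in every comparison. The log2 difference of SCI from Sham was −0.02 (95% interval −0.175 to 0.139, adjusted p = 0.842), that of SCI+FIPI from SCI 0.07 (−0.091 to 0.224, adjusted p = 0.622) and that of SCI+FIPI from Sham 0.05 (−0.109 to 0.206). At least 108577 counts in each mouse stood behind these values, and the intervals leave no room for a change of the called size.

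Ftl1 (ENSMUSG00000050708, chr7:45457944-45459884, minus strand) encodes the ferritin light chain, which helps form the mineral core. It gave 26.0, 31.4 and 21.3 CPM in Sham mice, 359, 290 and 389 CPM in SCI mice, and 354, 287 and 356 CPM in SCI+FIPI mice. The contused groups lay together and apart from Sham. Ftl1 rose 13.2-fold in SCI against Sham (log2 3.72, SE 0.17, adjusted p = 1.1e-07) and 12.7-fold in SCI+FIPI against Sham (log2 3.66, adjusted p = 2.33e-07). SCI+FIPI and SCI differed by −0.06 on the log2 scale (95% interval −0.408 to 0.288, adjusted p = 0.857). Its counts are uncertain as a level. Of the 50-base stretches of its longest transcript, 90.6% also occur in 17 other annotated genes, among them processed pseudogenes, and a gene of the opposite strand, Gm10252, covers 26.5% of its exonic bases.

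The 3 annotated copies with most reads were also higher in both contused groups than in Sham. Ftl2-ps, a processed pseudogene, had 25, 21 and 14 counts in Sham, 311, 316 and 292 in SCI and 232, 300 and 342 in SCI+FIPI mice. Ftl1-ps1, which shares 73.4% of the stretches of Ftl1, had 6, 2 and 6 counts in Sham, 85, 102 and 80 in SCI, and 75, 51 and 74 in SCI+FIPI mice. Gm15590 had 7, 13 and 2 counts in Sham, 81, 102 and 117 in SCI, and 91, 93 and 88 in SCI+FIPI mice. Whether reads of Ftl1 fell among its copies, or were dropped for matching several genes, cannot be told from the table, and the low FPKM of Ftl1 beside Fth1 (19.7 against 1503 in Sham) is read with that limit.

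The ratio of the 2 ferritin chains was higher in both contused groups than in Sham. Ftl1 gave 0.499, 0.582 and 0.432 counts per 100 counts of Fth1 in Sham mice, 6.70, 5.81 and 7.83 in SCI mice, and 7.07, 5.33 and 6.28 in SCI+FIPI mice. Every contused mouse lay far above every Sham mouse. The log2 ratio was higher by 3.75 in SCI than in Sham and by 3.63 in SCI+FIPI than in Sham (exact two-sided permutation p = 0.1 each, the smallest that 3 against 3 allow). SCI+FIPI and SCI differed by −0.12 (exact permutation p = 0.5). With the counts of 17 annotated copies added to Ftl1 and of 1 to Fth1, the 3 differences were 3.74, 3.61 and −0.12. Both genes carry a hairpin before the coding sequence, where binding blocks translation, so these RNA levels do not show whether it was bound.

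**Figure D2:**
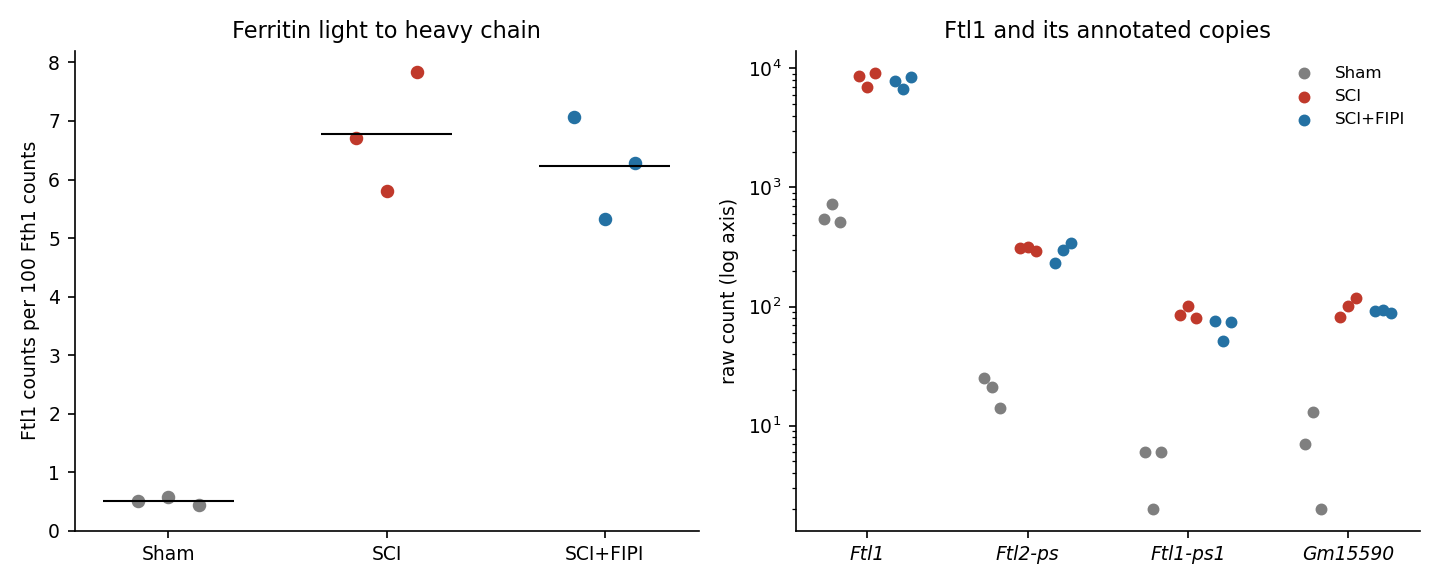
Left, Ftl1 counts per 100 Fth1 counts in each mouse, with the group mean as a line; right, raw counts on a log axis of Ftl1 and 3 annotated copies, coloured by group. Sham mice lay between 0.432 and 0.582 counts per 100 and contused mice between 5.33 and 7.83, and each copy was also lower in Sham than in either contused group.

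Tfrc (ENSMUSG00000022797, chr16:32608920-32632794, plus strand) encodes transferrin receptor 1, which takes up iron-loaded transferrin, and was the only member that fell. It gave 123, 127 and 114 CPM in Sham mice, 86.4, 68.5 and 73.7 CPM in SCI mice, and 100.1, 94.4 and 74.4 CPM in SCI+FIPI mice. Both contused groups lay below Sham without overlap, and SCI+FIPI mouse 3 lay within the SCI range. Tfrc fell by 0.67 on the log2 scale in SCI against Sham (SE 0.11, adjusted p = 0.000305). With offsets for GC content the value was −0.46 and the call was lost. The value in SCI+FIPI against Sham was −0.44 (adjusted p = 0.00626), short of the fold limit, and it was −0.52 and called without SCI+FIPI replicate 1. SCI+FIPI and SCI differed by 0.23 (95% interval −0.016 to 0.485, adjusted p = 0.23).

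Slc11a1 (ENSMUSG00000026177, chr1:74375195-74386062, plus strand), known as Nramp1, moves divalent metals out of the phagosomes of macrophages. It gave 17.4, 16.5 and 12.1 CPM in Sham mice, 98.3, 125 and 122 CPM in SCI mice, and 88.5, 78.6 and 83.1 CPM in SCI+FIPI mice. The 3 groups were fully separated, in the order Sham, SCI+FIPI, SCI. Slc11a1 rose 7.53-fold in SCI against Sham (log2 2.91, SE 0.14, adjusted p = 2.02e-08), and by log2 2.44 in SCI+FIPI against Sham (adjusted p = 1.44e-07). Its value in SCI+FIPI against SCI was −0.47 (SE 0.12, 95% interval −0.737 to −0.196). The adjusted p was 0.04 in edgeR, and the difference was not called because it fell short of the fold limit. Without SCI replicate 1, the lowest SCI mouse, it was −0.56 and called.

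Slc11a2 (ENSMUSG00000023030, chr15:100387898-100425072, minus strand), the divalent metal transporter DMT1 that carries iron into the cytosol, is the close relative of Slc11a1 and did not follow it. Its levels were 60.3, 54.6 and 61.5 CPM in Sham, 54.3, 55.2 and 56.6 CPM in SCI, and 53.9, 56.7 and 52.1 CPM in SCI+FIPI mice. The groups overlapped throughout. The log2 differences were −0.09 in SCI against Sham (95% interval −0.222 to 0.048), −0.03 in SCI+FIPI against SCI (−0.164 to 0.105) and −0.12 in SCI+FIPI against Sham (−0.251 to 0.018).

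Trf (ENSMUSG00000032554, chr9:103204001-103230444, minus strand) encodes transferrin, the iron carrier of plasma, which oligodendrocytes also make. It was counted at only 79, 72 and 88 reads in Sham, 83, 58 and 56 in SCI, and 49, 63 and 64 in SCI+FIPI mice, near 1.07 FPKM in Sham, although oligodendrocyte markers were high in every mouse. The same-strand gene Gm20425 shares 63.5% of the exonic bases of Trf and is listed at 0 in all 9 mice, so the counts may hold only part of the transferrin RNA. SCI mouse 1 lay within the Sham range and the other two SCI mice below it. None of its differences was called in edgeR (−0.36, adjusted p = 0.129, in SCI against Sham; −0.13, adjusted p = 0.758, in SCI+FIPI against SCI; −0.48, adjusted p = 0.0518, in SCI+FIPI against Sham). Without SCI replicate 1 the SCI against Sham value was −0.57 and called. The SCI+FIPI against Sham value was called under 3 alternatives, at −0.53 with upper-quartile factors, −0.59 with GC offsets and −0.57 without Sham replicate 2.

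Slc40a1 (ENSMUSG00000025993, chr1:45908068-45926523, minus strand) encodes ferroportin, the iron exporter. It gave 15.9, 15.3 and 12.6 CPM in Sham mice, 24.1, 31.9 and 32.9 CPM in SCI mice and 26.6, 26.0 and 26.8 CPM in SCI+FIPI mice. The SCI+FIPI mice were nearly equal and stood inside the SCI range, above every Sham mouse. Slc40a1 rose in SCI (log2 1.02, SE 0.12, adjusted p = 2.73e-06) and in SCI+FIPI (log2 0.86, adjusted p = 2.31e-05) against Sham. The 2 contused groups differed by −0.16 (95% interval −0.408 to 0.08, adjusted p = 0.401).

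Cp (ENSMUSG00000003617, chr3:19957054-20009145, plus strand) encodes ceruloplasmin, the copper oxidase that loads exported iron onto transferrin and that astrocytes carry on their surface. It gave 31.6, 48.0 and 47.2 CPM in Sham mice, 88.4, 81.8 and 99.1 CPM in SCI mice, and 74.8, 74.9 and 103 CPM in SCI+FIPI mice. All contused mice stood above all Sham mice, and the SCI+FIPI mice lay on either side of the SCI group. Cp rose by log2 1.08 in SCI (SE 0.20, adjusted p = 0.00165) and 0.99 in SCI+FIPI (adjusted p = 0.00312) against Sham. The contused groups differed by −0.09 (95% interval −0.534 to 0.357), an interval too wide to tell a change of the called size from none. The summed astrocyte markers rose beside Cp, as given above. Gfap made up most of that sum (10020, 10020 and 8818 CPM in SCI mice 1 to 3). Of the 6 markers 3 were not called, Slc1a3 at −0.0046, Gja1 at 0.17 and S100b at −0.32 on the log2 scale. The part of astrocytes in the value of Cp was not tested.

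Gpx4 (ENSMUSG00000075706, chr10:80047166-80056439, plus strand) encodes the selenoenzyme that reduces lipid peroxides in membranes. It gave 257, 245 and 235 CPM in Sham, 284, 257.4 and 279 CPM in SCI, and 268, 280.3 and 297 CPM in SCI+FIPI mice. Sham mice were the lowest of the 9, but the highest Sham and lowest SCI mouse differed by under 1 CPM. The log2 difference was 0.16 in SCI against Sham (SE 0.06, adjusted p = 0.044) and 0.20 in SCI+FIPI against Sham (adjusted p = 0.0157), and neither reached the fold limit of 0.5. The upper ends of their 95% intervals were 0.294 and 0.335. SCI+FIPI and SCI differed by 0.04 (−0.095 to 0.179). Gpx4-ps2, a transcribed pseudogene with 1227 to 1605 counts, shares 61.7% of the 50-base stretches of Gpx4, so small shifts of this gene are uncertain.

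Per exonic length, the Sham order ran from Fth1 at 1503 FPKM and Gpx4 at 143 ± 7.11 to Tfrc at 19.8 ± 1.34 and Ftl1 at 19.7 ± 4.04, which did not differ beyond their spread. Slc11a2 (9.31 ± 0.466), Hmox1 (6.42 ± 1.35), Cp (4.46 ± 0.992) and Slc11a1 (4.18 ± 0.800) followed, of which Cp and Slc11a1 lay within each other's spread, and Slc40a1 (1.63 ± 0.209) and Trf (1.07 ± 0.0981) came last (SD, n = 3 each). In SCI, Ftl1 (255 ± 38.0) and Hmox1 (163 ± 47.5) stood next below Fth1. Hmox1 overlapped Gpx4 (157 ± 8.52), and Slc11a1 (30.7 ± 3.87) had passed Tfrc (12.2 ± 1.50). These orders depend on the exonic length, which joins the exons of all transcripts of a gene. It was 9566 bases for Cp and 9000 for Slc40a1, whose longest transcripts have 4564 and 3928. Ftl1 and Trf may also be counted only in part, as given above.

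**Figure D3:**
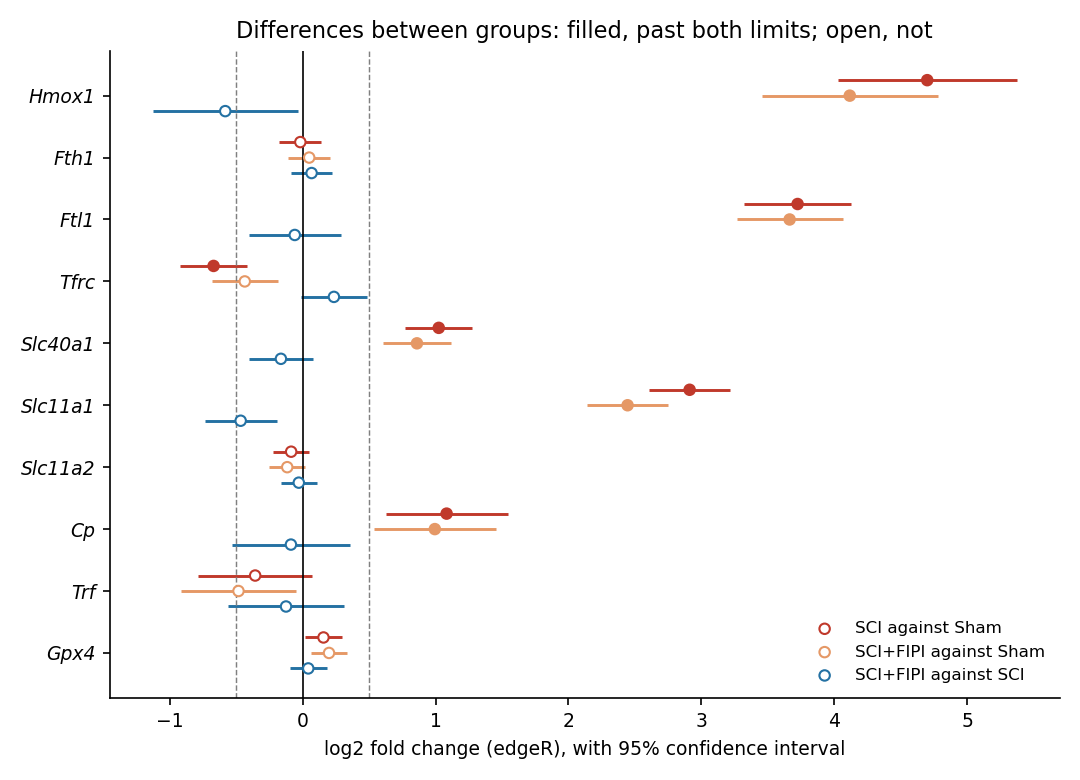
Log2 fold change in edgeR with its 95% confidence interval for the 10 genes in each of the 3 comparisons; filled points passed both limits, and dashed lines mark the fold limit of 0.5. The 2 comparisons with Sham ran side by side and share the Sham mice, while the points of SCI+FIPI against SCI stayed between −0.58 and 0.23 and all were open.

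FIPI was compared with vehicle in contused mice to see whether the drug moved these genes. None of the 10 passed both limits in SCI+FIPI against SCI, where 3.06% of all genes were called. By direction these were 2.36% higher and 0.695% lower. At an unadjusted p under 0.05 there were 2 members, Hmox1 and Slc11a1, beside 25.2% of all genes, and DESeq2 and limma-voom also called 0. The members' median log2 fold change was −0.0743, beside −0.0013 over all genes. Slc11a1 alone did not overlap between the 2 groups, against 30.2% of all genes. Without SCI replicate 1 the count of members called was 1. Against Sham, 5 of 10 were called in SCI+FIPI, all higher (Hmox1, Ftl1, Slc11a1, Cp and Slc40a1), against 38.1% of all genes, 21.2% higher and 17% lower. For 8 members these groups did not overlap, against 66.3% of all genes, and the median was 0.53. This comparison shares its Sham mice with SCI against Sham and its treated mice with SCI+FIPI against SCI.

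The summed microglia and macrophage markers lay lower in SCI+FIPI than in SCI, as did the mean levels of Hmox1 and Slc11a1. They were 5827, 5223 and 6086 CPM in SCI mice 1 to 3 and 5148, 3456 and 3470 CPM in SCI+FIPI mice 1 to 3, and 0 of 10 markers passed the test there (median log2 fold change −0.35, 9 of 10 negative). SCI+FIPI mouse 1 had the highest marker sum and the highest Hmox1 and Slc11a1 of its group. Within SCI, mouse 2 had the lowest marker sum and the highest Hmox1 and Slc11a1. Gpnmb made up most of that sum (4151, 3379 and 4077 CPM in SCI mice 1 to 3). Without it the sums were 1676, 1844 and 2009 CPM in SCI mice and 1552, 1355 and 1453 CPM in SCI+FIPI mice. SCI mouse 1, lowest of its group in both genes, was then also lowest in the sum. SCI mouse 3 was highest in the sum, whereas SCI mouse 2 was highest in both genes. Among SCI+FIPI mice, mouse 2 was lowest in the sum and in Slc11a1, and mouse 3 was lowest in Hmox1. The part of these cells in either gene was not tested. Red cell markers ran from 97.8 to 234 CPM in SCI and from 63.1 to 235 CPM in SCI+FIPI mice. SCI mouse 2, highest in Hmox1, was the middle one of its group at 195 CPM. In SCI+FIPI, mouse 1, highest in Hmox1, had the lowest red cell sum (63.1 CPM), and mouse 3, lowest in Hmox1, the highest (235 CPM).

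**Figure D4:**
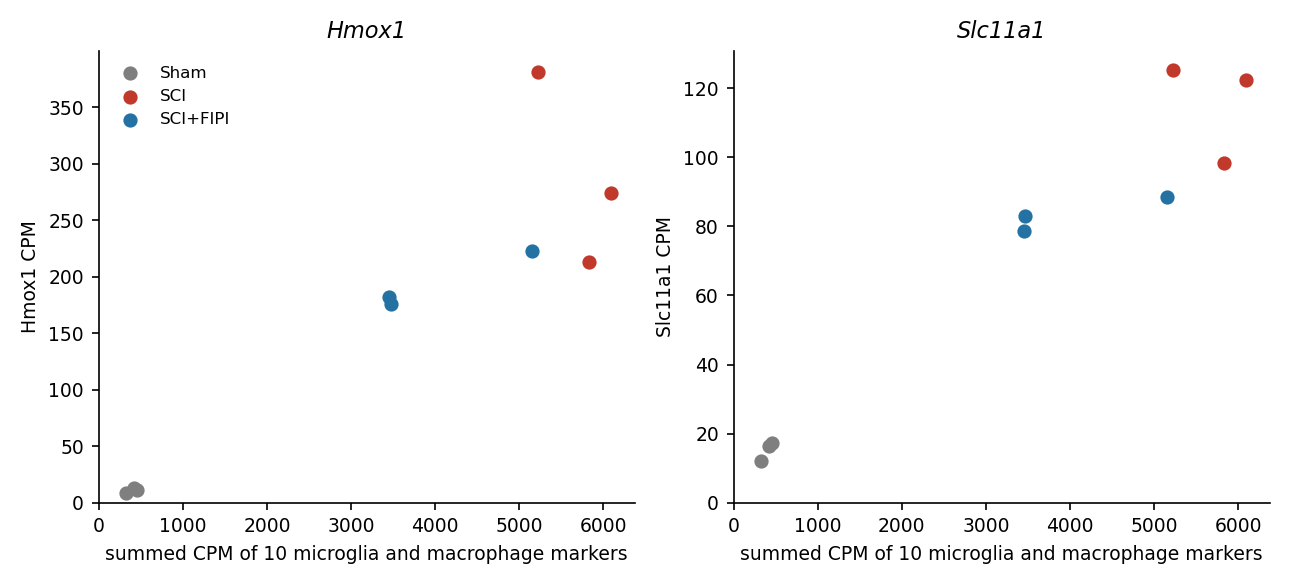
CPM of Hmox1 (left) and Slc11a1 (right) against the summed CPM of 10 microglia and macrophage markers, 1 point per mouse, coloured by group. Sham mice lay at 328 to 454 on the horizontal axis, SCI+FIPI mice at 3456 to 5148 and SCI mice at 5223 to 6086. Sham mice stood far from the contused mice, so no correlation is given. The 2 contused groups were not set apart from each other in this way, since SCI+FIPI mouse 1 (5148) lay near SCI mouse 2 (5223).

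The resemblances below are a description dominated by the step from Sham to the contused groups. Across the 9 mice, the genes whose log2 CPM most resembled each member were found by Pearson's r among 14553 genes. They were Lig1 and Ms4a6d for Hmox1 (r = 0.998 each), Apcdd1 and Ctsd for Ftl1 (0.999 and 0.998), and Apobr and Plaur for Slc11a1 (0.999 each). Ppan and Naalad2 were nearest to Slc40a1 (0.993 each), Tfpi and Isyna1 to Cp (0.992 and 0.992), and Chchd3 and Fbxl17 to Tfrc (0.991 and 0.983). For the members not called in SCI against Sham the values were lower, with Tab1 and Ccdc17 at 0.981 and 0.980 for Gpx4, Elac2 and Zfp94 at 0.964 and 0.963 for Trf, Dusp15 and Fam193b at 0.938 and 0.932 for Fth1, and Srfbp1 and Zfp35 at 0.931 and 0.930 for Slc11a2. Between members, r was 0.995 for Hmox1 and Slc11a1, 0.984 for Hmox1 and Ftl1, −0.871 for Hmox1 and Tfrc, and 0.138 for the ferritin pair.

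The rest of the pathway was read from 98 listed genes, of which 95 could be tested. In SCI against Sham 33 rose and 10 fell (45.26% of those tested, beside 47% of all genes), with a median log2 fold change of 0.31. The SCI+FIPI mice had 33 higher than Sham and 6 lower (41.05%, beside 38.1% of all genes, median 0.27). Only 2 were called in SCI+FIPI against SCI (2.11%, beside 3.06% of all genes).

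Of 18 further iron transport genes, 7 rose and 3 fell in SCI (55.56%, beside 47% of all genes called). Steap3, an endosomal ferrireductase of the transferrin cycle, rose from 9.05–11.9 to 58.1–67.4 CPM (log2 2.50, SE 0.11, adjusted p = 5.14e-10 in edgeR). Steap1, of the same family, rose by log2 2.02 from a low level of 0.24–0.39 CPM, whereas Steap2 fell by 1.25 (55.7–73.3 to 23.6–30.9 CPM). Steap4 (1.76), the ferrireductase Cybrd1 (1.73), the zinc and iron importers Slc39a8 (0.94) and Slc39a14 (0.96) and the ferritin receptor Scara5 (1.43) rose as well. Slc22a17, a lipocalin receptor, fell by 0.80. Against Sham, 8 genes of the list rose and 2 fell in SCI+FIPI (55.56%, beside 38.1% of all genes). Steap1 and Steap3 were at log2 2.30 each and Steap2 at −0.98.

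Of 17 genes of iron storage and its regulation, 1 rose and 3 fell in SCI (23.53%, beside 47% of all genes called). Hfe, which binds transferrin receptors, rose by log2 1.57, and the hepcidin paralog Hamp2 fell by 1.10 at under 1.3 CPM in every mouse. The mitochondrial iron-sulfur protein Cisd1 fell by 0.78 and the cluster scaffold Iscu by 0.64. The iron regulatory proteins that bind the hairpins were not called. Aco1 was at 42.1–49.4 CPM in Sham and 61.1–65.8 CPM in SCI (log2 0.48, adjusted p = 2.57e-05, short of the fold limit), and Ireb2 at 59.5–66.0 and 59.6–65.0 CPM (−0.04, adjusted p = 0.61). Ncoa4, the receptor for autophagy of ferritin, had a log2 difference of 0.21 (adjusted p = 0.0129). Against Sham, SCI+FIPI mice had 2 of the list higher and 1 lower (17.65%, beside 38.1% of all genes).

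Of 14 genes of heme uptake, breakdown and export, 7 rose and none fell in SCI, beside 47% of all genes called and 24.4% called higher. Blvrb, which reduces biliverdin, rose by log2 1.50 (adjusted p = 6.24e-09), Lrp1, a receptor for hemopexin-bound heme, by 1.10, and Cd163, the macrophage receptor for haptoglobin-bound hemoglobin, by 1.29 (2.87–4.64 to 6.91–15.2 CPM). Hp, haptoglobin, rose by 2.34 (1.09–2.85 to 6.46–13.2 CPM), and Spic, a factor of heme-recycling macrophages, by 3.00 from 0–0.13 to 0.46–0.87 CPM, a level of few reads. Bach1, the heme-sensing repressor of Hmox1, rose by 0.98, and the heme exporter Flvcr1 by 0.57. The constitutive heme oxygenase Hmox2 did not follow Hmox1 (56.2 and 55.9 CPM on average, log2 −0.01, adjusted p = 0.927). In SCI+FIPI against Sham 7 of the 14 rose and none fell, beside 38.1% of all genes called and 21.2% called higher. Spic was at 2.59 and Hp at 2.16. Of 9 genes of heme synthesis, 2 rose and 1 fell in SCI (33.33%, beside 47% of all genes). Among them Alas1 rose by 0.53 and Cpox fell by 0.64. Against Sham, 1 was higher and 1 lower in SCI+FIPI (22.22%, beside 38.1% of all genes), with Cpox at −0.72.

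Of 18 ferroptosis defence genes besides Gpx4, 7 rose and 1 fell in SCI. Nfe2l2, the master factor of the antioxidant response, rose from 37.5–40.7 to 105–130 CPM (log2 1.56, adjusted p = 7.38e-10). The cystine transporter chains Slc7a11 (0.92) and Slc3a2 (0.81), the coenzyme Q reductase Aifm2 (0.95), the tetrahydrobiopterin enzyme Gch1 (1.20), Nqo1 (0.71) and Txnrd1 (0.65) rose, and the glutathione synthetase Gss fell by 0.52. Of 19 genes that promote or mark ferroptosis, 9 rose and 2 fell. Ptgs2, cyclooxygenase 2, rose by log2 2.39 (1.53–2.38 to 5.28–12.9 CPM), Alox5 by 1.80, Sat1 by 1.66, Slc1a5 by 1.43, Lpcat3 by 1.21, Cyb5r1 by 0.94, Trp53 by 0.87, Alox12 by 0.72 and Por by 0.68. Gls2 fell by 1.64 and Alox12b, at under 1.8 CPM in every mouse, by 2.11. Acsl4, which makes the lipids that are peroxidized, had a log2 difference of −0.26 (adjusted p = 0.0329). The shares called in SCI against Sham were 44.44% of the defence list and 57.89% of the promoting list, beside 47% of all genes. In SCI+FIPI against Sham 6 of the defence list were higher and none lower (33.33%, beside 38.1% of all genes). Of the promoting list 9 were higher and 2 lower (57.89%), with Ptgs2 at 2.02, Alox12b at −1.41 and Gls2 at −1.07.

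In SCI+FIPI against SCI the 2 pathway genes called were Gch1 and Gls2. Gch1, which makes tetrahydrobiopterin, a radical trap, was at 10.3, 10.9 and 9.999 CPM in SCI mice and 7.55, 6.70 and 7.72 CPM in SCI+FIPI mice (log2 −0.51, SE 0.12, adjusted p = 0.0215). Gls2, a mitochondrial glutaminase, was at 17.1, 15.0 and 11.4 CPM in SCI and 21.1, 21.8 and 21.7 CPM in SCI+FIPI mice (log2 0.57, SE 0.12, adjusted p = 0.014). Neither gene overlapped between these groups, as was so for 30.2% of all genes tested. Both lay between Sham and SCI in SCI+FIPI mice. Neuron markers moved beside Gls2, with 6 of 8 called higher in SCI+FIPI against SCI, beside 2.36% of all genes. Their sums were 1698 to 2449 CPM in SCI and 2845 to 3405 CPM in SCI+FIPI mice. The part of neurons in the value of Gls2 was not tested. The count of 2 was 1 without SCI replicate 2, 1 without SCI replicate 3 and 0 without SCI+FIPI replicate 2.

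**Figure D5:**
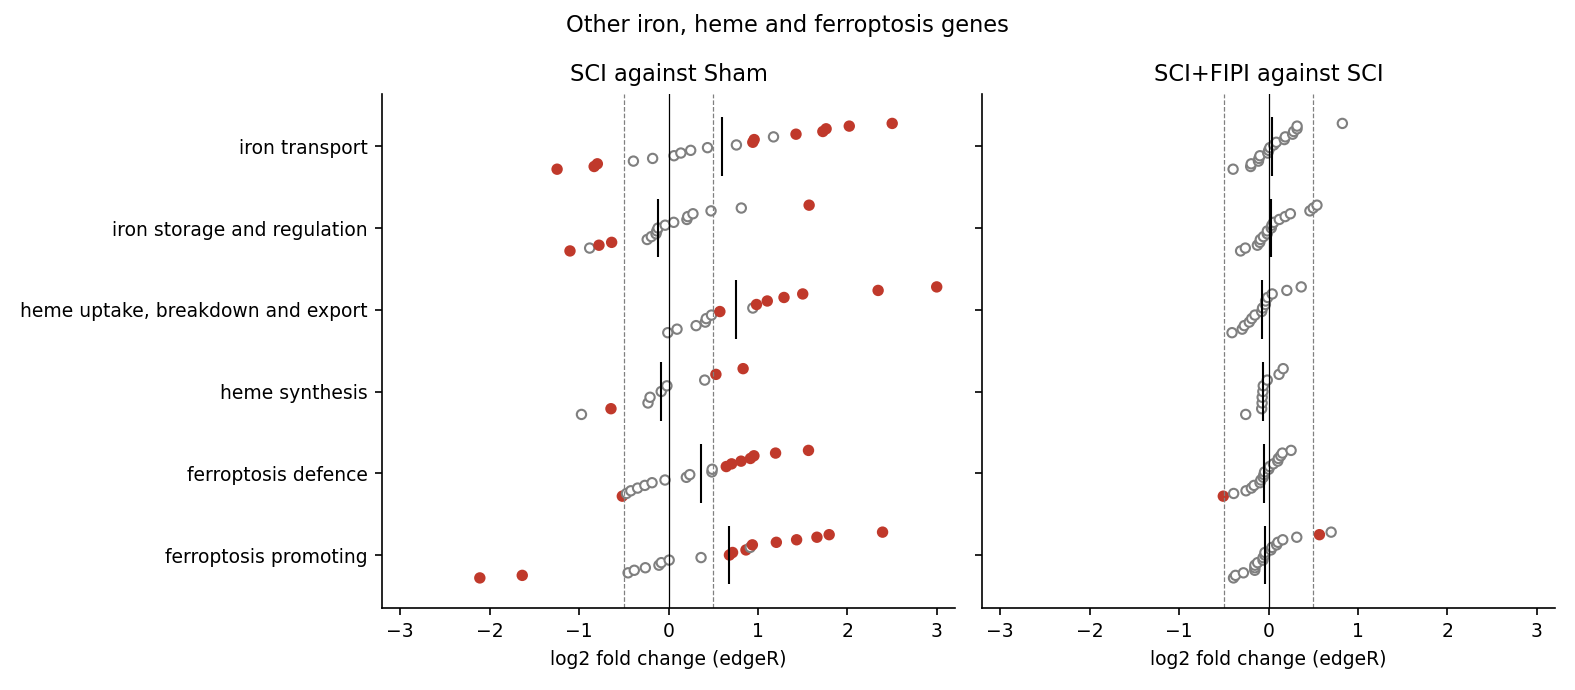
Log2 fold change in edgeR of the 95 tested pathway genes in 6 lists, for SCI against Sham (left) and SCI+FIPI against SCI (right); red points were called, black bars are list medians and dashed lines mark the fold limit of 0.5. The left panel spreads from −2.11 to 3.00 with 43 called genes, and the right panel has 2, Gch1 and Gls2.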

How the data were processed

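The authors removed low-quality and adapter sequence from reads of oligo(dT)-selected RNA, counted reads per gene and deposited raw counts of 52550 Ensembl genes, without normalization. The submitters' processing notes name GRCm38 and R 4.2.3. The aligner, the counting program and its use of strand are not given in the sources used here. All 9 columns were used. The labels do not tie replicate numbers to shared animals. GENCODE M21 supplied symbols, positions and lengths (52403 genes matched).

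Counts were fitted in edgeR 4.0.16 (R 4.3.3), with TMM factors, filterByExpr by group (18699 genes), and a robust quasi-likelihood model with a mean per group. The calling limits come from the study's methods, which name no test. CPM is per library total scaled by the TMM factor, and FPKM is per kilobase of exon and per unscaled total. Exact permutation tests used log2 CPM (prior count 2). DESeq2 1.42.0 and limma 3.58.1 were alternatives, with other factors and filters, only the groups compared, GC offsets, a replicate block, removal of hemoglobin and mitochondrial genes, and each mouse left out. The steps were tested on simulated data.

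The members and the gene lists were chosen with earlier results of these data known. Named were all members, the 5 largest called rises and falls of the pathway lists in each comparison, all pathway genes called in SCI+FIPI against SCI, and the 2 genes most like each member (mean log2 CPM of at least 1). Other pathway genes named were chosen after their values were seen. The marker sum without Gpnmb was added after the data were seen. Some genes that fall under these rules are not reported here. Ahsp had no match among the red cell markers. Sequences were read with Python 3.11.15, exact tests run with scipy 1.17.1 and figures drawn with matplotlib 3.10.9.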

Additional observations from a re-analysis of the deposited data

How the results depend on the processing

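Among the summary counts and ferritin ratios under all alternatives, 129 values stayed near the main value, 5 became weaker and 1 stronger. Near meant within a fixed factor of the main count, or within the larger group SD for a log2 ratio. The members called in SCI+FIPI against SCI numbered 0 to 1 when each mouse was left out, and the pathway genes called there 0 to 2. The latter numbered 1 with upper-quartile factors and 1 with at least 10 counts in every mouse, and the cause was not tested. Of the members' single values 585 kept direction and call, 6 became stronger, 1 weaker and 8 changed sign. Those 8 were of differences near 0 that no fit called. The 585 include log2 CPM differences at a prior count of 0.5, kept when within the larger group SD. On the log2 scale, Fth1 in SCI against Sham was 0.003 with no filter on low counts, and ran from −0.0545 to 0.0111 when each mouse was left out. Likewise in SCI+FIPI against SCI, Ftl1 ran from −0.1725 to 0.0346, Trf from −0.223 to 0.0852 and Gpx4 from −0.0009 to 0.0758. The cause was not tested.

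With the replicate number as a replicate block, 6, 0 and 5 members and 42, 2 and 38 pathway genes were called in SCI against Sham, SCI+FIPI against SCI and SCI+FIPI against Sham, and no member's call changed. Mice with the same number are different animals, and their deviations correlated at −0.13 to 0.192. Mice with different numbers were not compared in this way, so these values do not show whether the numbers mark shared handling. Depth limits Trf, Spic, Steap1, Hamp2 and Alox12b, with few reads per mouse, and shared sequence limits Ftl1, Trf and Gpx4.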
